A study of Mus musculus with 8 samples.

Results

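CD44hi CD4 T cells were compared with naive CD4 T cells from mice of the Ox40-cre/ROSA-YFP line, whose reporter leaves YFP in cells that once made Ox40 (the product of Tnfrsf4) and in their progeny. The comparison was defined by the sample labels alone, as 2 CD44hi arrays against 2 naive arrays, which are 4 of the 8 arrays of the study. The other arrays held 2 samples of CD44lo and 2 of regulatory T (Treg) cells, and they are used here to estimate the spread between samples and to place some CD44hi values. In all 4 groups the mice were C57BL/6 males aged 15 weeks, the tissue was spleen and lymph nodes combined, and the cells were sorted primary lymphocytes with no treatment named. The labels give neither the gates of the sort nor the YFP status of each group, so a group is known by its name alone. They number the samples of each group m1 and m2 and do not state if they came from different animals, so the p-values below measure the spread between samples, which may be technical.

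Naive CD4 T cells have left the thymus but have not yet met their antigen. They are small resting cells that recirculate through lymph nodes with the help of the chemokine receptor Ccr7, live on IL-7, and keep a program of transcription factors such as Lef1, Satb1 and Bach2. After antigen contact the cells divide, raise the adhesion receptor CD44 and may become T helper effector, follicular helper or memory cells, which make cytokines, enter inflamed tissue and respond quickly to a second contact. In an unimmunized mouse the CD44hi fraction of CD4 cells is a mixture of such cells.

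Signals were read from Agilent arrays with 1 colour and set on a common scale on which the 75th percentile of each array is 1000. These scaled signals compare arrays for the same probe and not one gene with another. The scanner software flagged 59.2% to 68.8% of 41174 probes as well above background on the 8 arrays, with the naive arrays lowest (62.0% on naive array 1 and 59.2% on naive array 2) and the CD44hi arrays at 64.8% and 68.8%. The naive pair differed more from each other than the CD44hi pair did (SD of the log2 difference across genes 0.63 against 0.48). Before scaling, naive array 2 was also the dimmest, with a 75th percentile of 639 against 991 on naive array 1, 1208 and 1189 on the CD44hi arrays, and between 1045 and 1337 on the other 4. The arrays lay on 2 slides, each with 1 array of every group, so all differences were also computed within each slide. Tests were made with limma over 17995 genes, each by its brightest probe, and a gene is said to have risen or fallen where its Benjamini-Hochberg adjusted p was under 0.05. Errors after ± are standard errors of that fit, with n = 2 arrays per group, and the number of arrays limits the precision.

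The labelled cell type was checked on its own markers. Cd4 gave 2217 and 751 on the naive arrays and 2372 and 1358 on the CD44hi arrays, so that both groups carried it and their ranges overlapped. Cd3e gave 3547 and 3070 in naive and 3289 and 3408 in CD44hi cells, and among the CD3 chains Cd3d, Cd3g and Cd247 as well none was called. Sums over markers of other cells rest mainly on their brightest probes. The summed scaled signal of the 8 tested NK, NKT and gamma-delta T cell markers was 15237 and 17142 on the naive arrays and 12747 and 12323 on the CD44hi arrays. The sum over 15 B cell and plasma cell markers was 39705 and 50805 in naive and 58800 and 62209 in CD44hi. The 21 myeloid and dendritic markers summed to 47053 and 66056 in naive and 44124 and 48096 in CD44hi. The 2 CD8 genes summed to 8713 and 13408 in naive and 3421 and 3391 in CD44hi, and Cd8b1 fell 3.18-fold (log2 -1.67 ± 0.22, adjusted p = 0.00207).

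Rises and falls were counted over all tested genes and again over those with signal on all 4 arrays. Of the 17995 genes, 2383 (13.2%) rose in CD44hi cells and 2616 (14.5%) fell, together 27.8%. Every one of these 4999 genes had the same sign within both slides. The slide differences come from the same 4 arrays as the calls, so this is no separate check. The genes that rose had a median log2 difference of 2.15 and those that fell one of -0.94. With 2 arrays against 2, the groups did not overlap in 11266 (62.6%) of all tested genes, called or not. Of the risen genes, 747 were not well above background on either naive array, while 88 of the fallen genes were not above it on either CD44hi array. Over the 15503 genes well above background on all 4 arrays, 1494 (9.64%) rose with a median of 1.54 and 2451 (15.8%) fell with a median of -0.91. Among these, 560 rose and 175 fell more than 4-fold, and 186 and 12 more than 16-fold. For the 747 and 88 genes not above background on either array of the dimmer group, only a lower bound on the change can be given. It is written below as "at least" and sets the brighter group's mean against the lowest signal measurable on the dimmer arrays. The median over all genes was log2 -0.15 (-0.28 within slide 1 and -0.036 within slide 2). Without CD44hi array 1, CD44hi array 2 or naive array 1 the number of called genes was 3264, 2594 or 9231, with 1208, 938 or 5914 falls. The balance of the called genes also depended on scaling: 47.7% of them were rises here, 34.1% with normexp background correction and 26.9% with median scaling, which moved the median of all genes by -0.27. In bulk RNA of this kind, fewer cells of a type and less RNA per cell cannot be told apart.

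**Figure D1:**
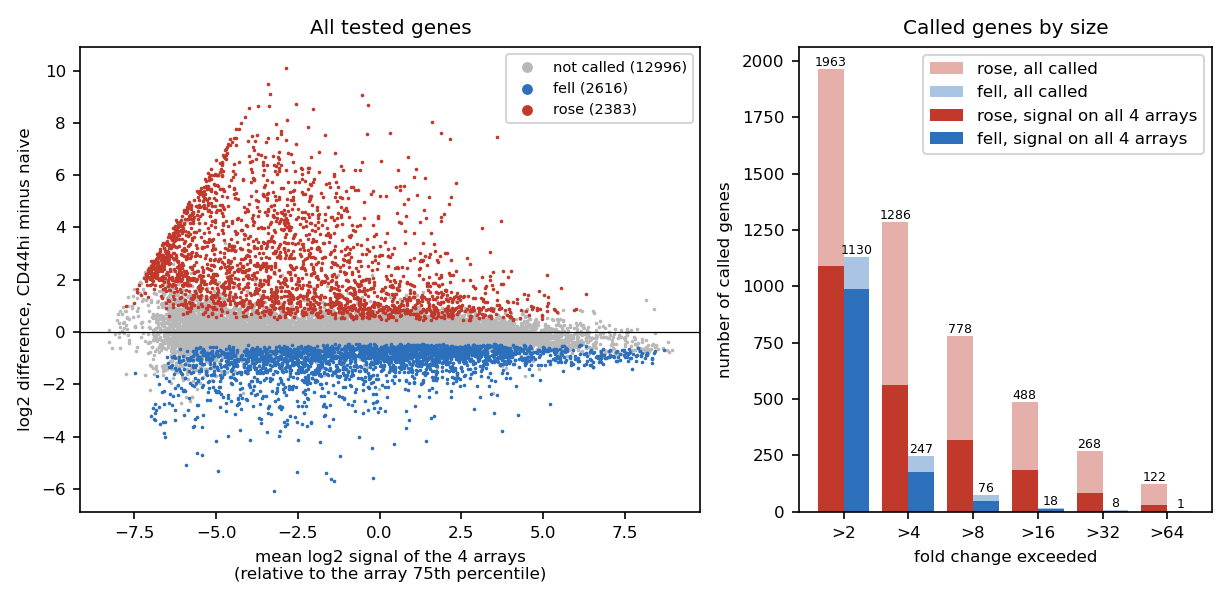
Left, the log2 difference of CD44hi from naive (vertical axis) against the mean log2 signal of the 4 arrays relative to each array's 75th percentile (horizontal axis), 1 point per tested gene, with called genes coloured. Right, the number of genes that rose or fell by more than each fold size (horizontal axis, fold), over all called genes (pale bars, with the counts) and over those with signal on all 4 arrays (solid bars). Past 2-fold there were 1963 rises and 1130 falls in all, and 1089 and 989 with signal on all 4 arrays, and past 64-fold 122 and 1 in all and 28 and 0 with signal.

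The genes that name the sort behaved as follows. Cd44 gave 4375 and 5692 in naive and 22593 and 20968 in CD44hi cells, with no overlap between the groups, and rose 4.36-fold (log2 2.12 ± 0.19, adjusted p = 3.8e-04). Ccr7, the receptor for the lymph node chemokines Ccl19 and Ccl21, gave 31916 and 41820 on the naive arrays and 9689 and 8066 on the CD44hi arrays and fell 4.13-fold (log2 -2.05 ± 0.21, adjusted p = 7.7e-04). Ccr7 was lower on each CD44hi array than on either naive array. The IL-7 receptor chain Il7r went from 33472 and 34032 to 22782 and 16304 and fell 1.75-fold, and Cd69, an early activation marker that also holds cells in tissue, fell 2.29-fold. Of the 17 surface markers listed for this transition, 4 rose and 4 fell, against 13.2% and 14.5% of all genes. The other rises were the IL-2 receptor chain Il2ra (7.34-fold), Tnfrsf4 (4.57-fold), which encodes the Ox40 of the reporter mouse, and Ly6a (Sca-1, 1.74-fold). Tnfrsf4 itself was present on both naive arrays, at 1618 and 2739, against 8763 and 10547 on the CD44hi arrays. With single arrays left out, named in brackets, limma lost the call on Il7r (CD44hi 2, naive 1 and naive 2, adjusted p up to 0.212), Cd69 (CD44hi 1, CD44hi 2, naive 1 and naive 2, adjusted p up to 0.186) and Ly6a (CD44hi 1, CD44hi 2 and naive 1, adjusted p up to 0.155).

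The largest rise among the genes with signal in both groups belonged to Ttc39c, a tetratricopeptide repeat gene, which gave 22.5 and 39.3 in naive and 13630 and 19045 in CD44hi cells and rose 542-fold (log2 9.08 ± 0.38, adjusted p = 4.1e-05). Second was the cytokine gene Ifng, at 26.4 and 56.7 in naive and 13234 and 18587 in CD44hi cells, a rise of 405-fold (log2 8.66 ± 0.46, adjusted p = 6.4e-05). Both genes were measurable in naive cells, and each CD44hi array exceeded each naive array by more than 2 orders of magnitude. Further down the same ranking stood the chemokine receptors Cxcr3 (262-fold) and Ccr6 (189-fold), the calcium-binding S100a6 (197-fold), the class I myosin Myo1f (197-fold) and the copine Cpne7 (185-fold). Most of the 25 largest rises had no measurable signal in naive cells. Sostdc1, a secreted BMP and Wnt antagonist known from follicular helper cells, rose at least 295-fold, with 3108 and 6539 on the CD44hi arrays. The secreted phosphoprotein Spp1 (osteopontin) rose at least 166-fold, the carboxylesterases Ces2b and Ces2c at least 226-fold and at least 151-fold, and the leucine-rich repeat gene Lrrn3 at least 98-fold. The kallikrein Klk1b27 rose at least 66.3-fold, Pxdc1 at least 45.4-fold and the endothelial cell-specific molecule gene Esm1 at least 65.6-fold. Osbpl3, an oxysterol-binding protein, was above background on only 1 of the 2 naive arrays and gave 7.88 and 26 on the naive arrays and 2793 and 3915 on the CD44hi arrays.

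The falls were led by the tetraspanin Tspan9, which gave 2295 and 3226 in naive and 57.1 and 49.5 in CD44hi cells and fell 51.2-fold (log2 -5.68 ± 0.21, adjusted p = 2.7e-05). Ampd1, the AMP deaminase that turns AMP into IMP, gave 1846 and 3342 in naive and 52.3 and 49.8 in CD44hi cells and fell 48.7-fold (log2 -5.60 ± 0.29, adjusted p = 6.3e-05). Igfbp4, which binds insulin-like growth factors, gave 5684 and 6218 on the naive arrays and 115 and 136 on the CD44hi arrays and fell 47.5-fold (log2 -5.57 ± 0.25, adjusted p = 4.1e-05). In each case the CD44hi arrays held a small, still measurable remainder, and the groups were far apart. The dynein regulator Drc1 (42.1-fold), the urokinase receptor Plaur (40.9-fold), the metallopeptidase Amz1 (26.8-fold), the calponin Cnn3 (19.3-fold) and the sodium pump subunit Atp1b1 (18.1-fold) also fell. Dntt, the terminal transferase that adds bases at antigen receptor joints in the thymus, was still measured at 2989 and 5224 in naive cells and fell 21.4-fold. Pdlim4, a LIM protein that binds actin, went from 44172 and 56404 in naive to 3352 and 3987 in CD44hi and fell 13.7-fold. Ggt5, a gamma-glutamyltransferase, fell 12.9-fold, the GTPase activator Arhgap29 13.8-fold, and the death-associated kinase Dapk1 15.6-fold. Bounds were all that could be given for Vwce (at least 15.9-fold), Myo18b (at least 9.25-fold) and Auts2 (at least 8.14-fold), which were not well above background on either CD44hi array.

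**Figure D2:**
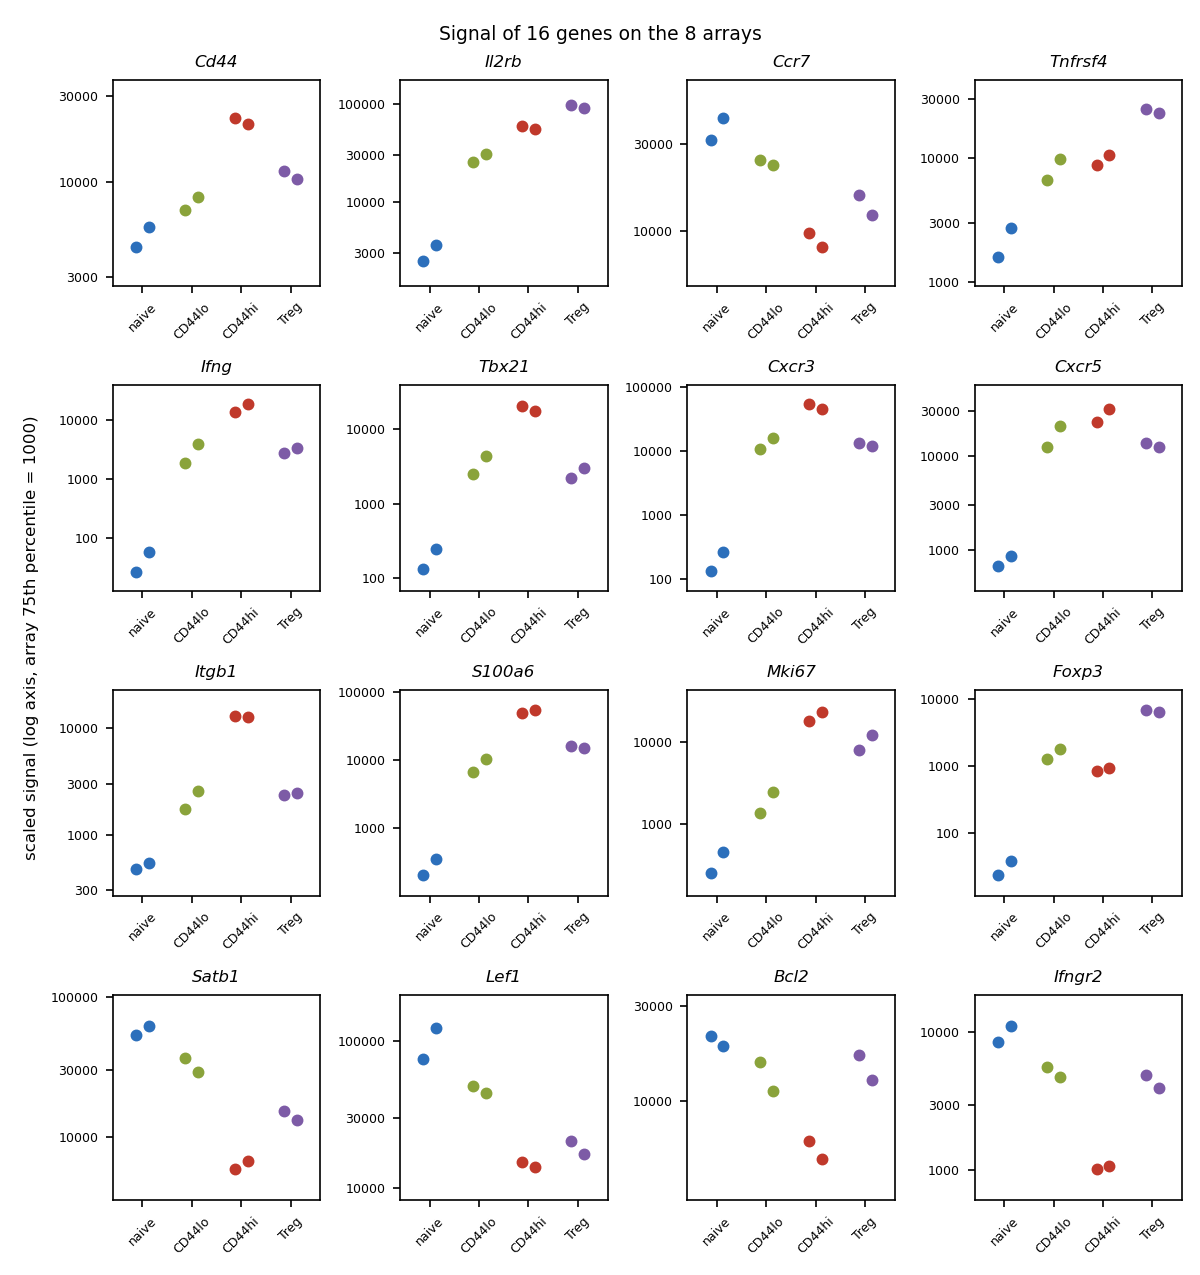
Scaled signal (log axis, array's 75th percentile = 1000) of 16 genes on each of the 8 arrays, 1 panel per gene, with 2 arrays in each of naive, CD44lo, CD44hi and Treg and all 16 genes well above background on every array. In every panel the 2 CD44hi arrays lie on one side of the 2 naive arrays, as they do for 62.6% of all tested genes.

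Transcription factors of the naive state fell as well. Of 18 tested, 10 fell and 0 rose, with a list median of log2 -0.64 against -0.15 for all genes (-0.82 within slide 1 and -0.54 within slide 2). The genome organizer Satb1 gave 53076 and 61727 in naive and 5904 and 6697 in CD44hi cells and fell 9.1-fold (log2 -3.19 ± 0.19, adjusted p = 8.8e-05). Lef1, the partner of beta-catenin in T cells, gave 75310 and 123630 in naive and 14981 and 13807 in CD44hi cells and fell 6.71-fold (log2 -2.75 ± 0.26, adjusted p = 4.9e-04). Bach2, a repressor of effector genes, fell 7.66-fold, Sox4 6.85-fold, the quiescence factor Foxp1 2.74-fold and Zbtb10 2.18-fold. Foxo1, which drives Ccr7 and Il7r, fell 1.97-fold. Tcf7, the close relative of Lef1, gave 59534 and 67961 on the naive arrays and 41767 and 42007 on the CD44hi arrays, and its fall of 1.52-fold (log2 -0.60 ± 0.15, adjusted p = 0.0264) was the smallest of the 10. Klf2, an activator of the exit receptor S1pr1, was not called (log2 -0.60 ± 0.21, adjusted p = 0.0783). No call remained without any 1 of the arrays in brackets for Tcf7 (CD44hi 1 and CD44hi 2, adjusted p up to 0.131).

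Among surface and signalling genes that naive cells are known to hold, 14 of 19 fell and 1 rose (median -1.64, within slides -1.42 and -1.94). Besides those already given, Dapl1 fell 8.48-fold. The kinase Txk of the Tec family fell 4.17-fold, and Tec itself, in the list of antigen receptor signalling genes, fell 3.7-fold. The exception was the octamer factor Pou2f2, which gave 307 and 209 in naive and 1437 and 1056 in CD44hi cells and rose 4.87-fold (log2 2.28 ± 0.25, adjusted p = 0.001).

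Transcription factors of effector and helper lineages moved in the other direction. Of 28 tested genes 25 rose and 0 fell (median 2.67, within slides 2.41 and 2.74), 22 of the 25 measured on all 4 arrays rose and 0 fell (median 1.98), and the lowest value of the list was 0.26. They included factors of each helper lineage. For the type 1 lineage, Tbx21 (T-bet) gave 132 and 247 in naive and 19994 and 17144 in CD44hi cells and rose 103-fold (log2 6.68 ± 0.38, adjusted p = 8.0e-05). For the IL-17 lineage, Rora rose 10.8-fold. Gata3 of the type 2 lineage, which naive CD4 cells also need, gave 6788 and 10353 on the naive arrays and 13581 and 15436 on the CD44hi arrays and rose only 1.73-fold (log2 0.79 ± 0.22, adjusted p = 0.038). For the regulatory lineage Foxp3 gave 23.5 and 38.9 in naive and 844 and 936 in CD44hi cells and rose 29.4-fold, and Ikzf2 (Helios) gave 90.2 and 198 in naive and 5025 and 6407 in CD44hi cells and rose 42.4-fold. For follicular helper cells Bcl6 rose 2.49-fold, its antagonist Prdm1 (Blimp-1) 3.03-fold, Maf 30.0-fold and Ascl2 3.95-fold. Runx2, a Runt family factor, gave 20.9 and 32.9 on the naive arrays and 1702 and 1979 on the CD44hi arrays and rose 69.9-fold (log2 6.13 ± 0.25, adjusted p = 3.5e-05), while its relatives Runx1 (log2 -0.016) and Runx3 (0.26) were not called. Zbtb32, a repressor of the BTB family, rose at least 298-fold, and Bhlhe40 and the vitamin D receptor Vdr rose 36-fold and 36-fold. Stat4 and Tox were not called (log2 0.48 ± 0.15, adjusted p = 0.0582 for Stat4). Without any 1 of the arrays in brackets limma did not call Gata3 (CD44hi 1 and CD44hi 2, adjusted p up to 0.178), Bcl6 (CD44hi 2 and naive 1, adjusted p up to 0.221) and Ascl2 (CD44hi 2, naive 1 and naive 2, adjusted p up to 0.0902).

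Cytokine genes of several helper lineages rose too, many from no measurable naive signal. Of 29 tested cytokine genes 17 rose and 1 fell (median 1.82, within slides 1.37 and 2.57), while 9 of the 21 measured on all 4 arrays rose and 1 fell (median 0.69). Lif has no probe here, and Il3, Il5 and Il9 were not tested because no group had both arrays above background. Il4, the type 2 and follicular helper cytokine, gave 18.3 and 28.7 in naive and 719 and 2078 in CD44hi cells and rose 53.4-fold (log2 5.74 ± 0.55, adjusted p = 5.6e-04). Il13, its neighbour in the genome and partner in type 2 responses, gave 39.1 and 49.2 in naive and 32.8 and 43 in CD44hi cells, was not called (adjusted p = 0.439) and had overlapping groups. Il21, which drives germinal centre B cells, was not well above background in naive cells, gave 1376 and 2340 in CD44hi cells and rose at least 117-fold (adjusted p = 2.5e-04). Of the IL-17 lineage cytokines Il17a rose at least 9.5-fold and Il22 at least 19.8-fold, and Il17f, measured on all 4 arrays at 33.9 and 45.5 on the naive arrays and 125 and 341 on the CD44hi arrays, rose 5.26-fold. Il10, which restrains inflammation, rose at least 27.5-fold and Il2, the T cell growth factor, at least 19.2-fold. Calls that needed any 1 of the arrays in brackets were those on Il17f (CD44hi 2, naive 1 and naive 2, adjusted p up to 0.057).

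Among the TNF family ligands, Tnfsf14 (LIGHT) gave 236 and 296 in naive and 16075 and 15874 in CD44hi cells and rose 60.4-fold (log2 5.92 ± 0.27, adjusted p = 4.6e-05). Tnfsf11 (RANKL) rose 12.5-fold, Tnf 3.25-fold and Tnfsf8 (CD30 ligand) 2.58-fold, while Cd40lg, Fasl and Tnfsf10 (TRAIL) were not called. Of the lymphotoxin genes next to Tnf, Ltb gave 271450 and 324660 in naive and 202100 and 191910 in CD44hi cells and fell 1.51-fold (log2 -0.59 ± 0.16, adjusted p = 0.032), but its log2 difference was 0.031 under quantile normalization and 0.055 in the authors' value table. Lta was not called (log2 -0.54 ± 0.23, adjusted p = 0.121). Csf1, the macrophage growth factor, rose 22.8-fold and Tgfb3 17.3-fold, whereas Tgfb1 was not called (log2 -0.056). Limma lost the call without any 1 of the arrays in brackets for Ltb (CD44hi 1 and CD44hi 2, adjusted p up to 0.167).

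Chemokine receptors rose widely. Of 22 listed genes 17 were tested, 13 rose and 0 fell (median 4.62, within slides 4.56 and 4.69), and over 17 settings of the processing the median ran from 1.88 to 4.66. Among the receptors listed 7 of the 11 measured on all 4 arrays rose and 0 fell (median 2.51). Ccr7, which fell as given above, belongs to the surface marker list and is not counted here. Ccr1, Cxcr1, Cxcr2, Ackr3 and Ackr4 were not above background on both arrays of any group. Cxcr3, which guides type 1 cells to interferon-induced chemokines, gave 132 and 264 on the naive arrays and 53133 and 44870 on the CD44hi arrays and rose 262-fold (log2 8.03 ± 0.35, adjusted p = 4.1e-05). Ccr6, carried by IL-17 producing cells, gave 45.6 and 69.2 in naive and 8084 and 13991 in CD44hi cells and rose 189-fold (log2 7.57 ± 0.30, adjusted p = 3.5e-05). Cxcr5, the receptor that leads cells into B cell follicles, gave 668 and 859 in naive and 23295 and 31466 in CD44hi cells and rose 35.7-fold (log2 5.16 ± 0.29, adjusted p = 7.8e-05). All 3 were measured on every array and their groups did not overlap.

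The liver and tissue homing receptor Cxcr6 rose 48.4-fold, and the inflammatory receptor Ccr3 5.7-fold. The skin homing receptors Ccr4 and Ccr10 and the gut homing receptor Gpr15 were not well above background in naive cells, and rose at least 49.2-fold, at least 14.1-fold and at least 48.6-fold. Ccr2, for entry into inflamed tissue, rose at least 112-fold and the fractalkine receptor Cx3cr1 at least 3.23-fold. Ccr8, which also rose, was above background on only 1 of the 2 naive arrays. Not among the rises were Ccr7, which fell as given above, and other receptors that were not called. These included Cxcr4 (log2 -0.44 ± 0.37, adjusted p = 0.413, with another of its probes of opposite sign), the oxysterol receptor Gpr183 (log2 -0.0076) and the gut homing Ccr9 (0.55).

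Of 17 chemokine genes tested 7 rose and 0 fell, and 3 of the 8 measured on all 4 arrays rose and 0 fell (median 0.34). Ccl5, a chemokine known from effector and memory T cells, gave 450 and 1099 on the naive arrays and 44810 and 29969 on the CD44hi arrays and rose 52.1-fold (log2 5.70 ± 0.42, adjusted p = 2.1e-04). Ccl4, an inflammatory chemokine, rose 12.5-fold and Xcl1 11.1-fold. Cxcl10, a Cxcr3 ligand, rose at least 60.4-fold and Ccl1, the Ccr8 ligand, at least 6.22-fold. Ccl19, made by stromal cells of lymph nodes, was not called (log2 -0.028).

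**Figure D3:**
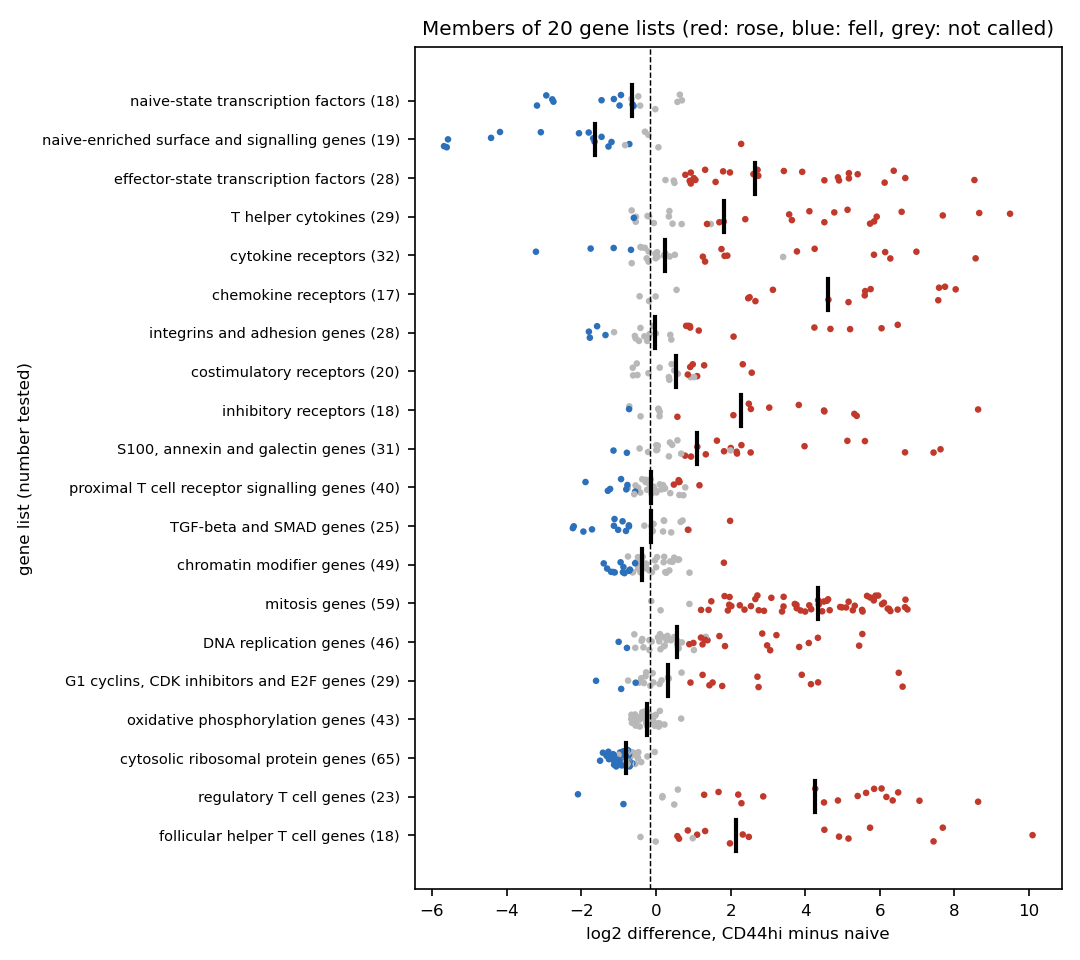
Log2 difference of CD44hi from naive (horizontal axis) for every tested member of 20 gene lists (vertical axis), with called members in colour, the list median as a black bar and the median of all 17995 genes as a dashed line. The mitosis list lies almost wholly to the right. The oxidative phosphorylation list lies close to the dashed line, and the median of the ribosomal protein list lies to the left of it (-0.79 against -0.15), both with a narrow spread.

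Cytokine receptors moved in both directions. Of 32 tested 12 rose and 4 fell, and the list median of 0.24 changed sign over 17 settings (-0.032 to 0.68). The rises were 37.5% beside 13.2% of all genes, and the falls 12.5%, not above the 14.5% of all genes. Among the 26 measured on all 4 arrays 7 rose and 4 fell (median 0.013). The rises included receptors of the IL-1 family. Il1rl1, which binds IL-33, gave 18.8 and 25 in naive and 1476 and 1923 in CD44hi cells and rose 77.8-fold (log2 6.28 ± 0.22, adjusted p = 2.2e-05). The IL-1 receptor Il1r1 rose at least 80.2-fold, the decoy Il1r2 at least 27.6-fold, and of the IL-18 receptor chains Il18rap rose at least 60.4-fold and Il18r1 2.49-fold. Il2rb, shared by the IL-2 and IL-15 receptors, gave 2503 and 3640 in naive and 59694 and 55510 in CD44hi cells and rose 19.1-fold (log2 4.25 ± 0.22, adjusted p = 5.5e-05), while the common chain Il2rg was not called (log2 0.26). Both chains of the IL-12 receptor rose, Il12rb1 13.7-fold and Il12rb2 at least 1.56-fold, although Il12rb2 stood at log2 -0.11 under normexp background correction. Il10ra rose 3.77-fold and the second TNF receptor Tnfrsf1b 3.38-fold. Leaving out the array in brackets ended the call on Il18r1 (CD44hi 2, adjusted p = 0.0648).

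The falls were in genes measured on every array. Ifngr2, the signalling chain of the interferon-gamma receptor, gave 8543 and 11104 on the naive arrays and 1025 and 1074 on the CD44hi arrays and fell 9.28-fold (log2 -3.21 ± 0.20, adjusted p = 1.1e-04). Its partner Ifngr1, which binds the cytokine, gave 31282 and 35210 in naive and 28468 and 25627 in CD44hi cells and was not called (adjusted p = 0.211). The IL-4 receptor Il4ra fell 3.36-fold, the first TNF receptor Tnfrsf1a 2.19-fold and the TGF-beta receptor Tgfbr2 1.59-fold, for which both other measurable probes had the opposite sign. The 2 TNF receptor genes thus moved in opposite directions, as did the ligand Ifng and the signalling chain of its receptor. The number of cytokine receptor falls was 7 without naive array 1 and 7 without naive array 2. No call remained without any 1 of the arrays in brackets for Tgfbr2 (CD44hi 1 and CD44hi 2, adjusted p up to 0.136).

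Downstream of these receptors 7 of 23 JAK, STAT, SOCS and PIAS genes fell and 3 rose (median -0.38). Socs2, an inhibitor of cytokine signalling, gave 32.9 and 33.6 in naive and 1607 and 1688 in CD44hi cells and rose 49.6-fold (log2 5.63 ± 0.14, adjusted p = 1.4e-05). Socs3, the inhibitor of IL-6 signalling, fell 1.62-fold, and Socs1, Socs4, Socs5, Socs6 and Socs7 were not called. Pias3 rose 3.18-fold and the kinase Jak2 1.45-fold. The kinase Jak1, which serves many cytokine receptors, gave 60200 and 62805 on the naive arrays and 38907 and 31954 on the CD44hi arrays and fell 1.74-fold (log2 -0.80 ± 0.17, adjusted p = 0.0159). Stat6 fell 1.48-fold, and the phosphatase Ptpn2, which switches JAK and STAT proteins off, fell 1.8-fold, again with another probe of opposite sign. Falls among these genes numbered 1 without CD44hi array 1, 0 without CD44hi array 2 and 13 without naive array 1. Without any 1 of the arrays in brackets limma did not call Socs3 (CD44hi 1, CD44hi 2 and naive 2, adjusted p up to 0.191), Jak2 (CD44hi 1 and CD44hi 2, adjusted p up to 0.215), Jak1 (CD44hi 2, adjusted p = 0.112), Stat6 (CD44hi 1, CD44hi 2 and naive 2, adjusted p up to 0.195) and Ptpn2 (CD44hi 1 and CD44hi 2, adjusted p up to 0.139).

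Integrin chains moved in both directions. Of 28 integrin and adhesion genes 11 rose and 4 fell (median -0.036, -0.30 to 0.32 over the settings, so of no fixed sign). The rises were 39.3% beside 13.2% of all genes, and the falls 14.3%, near the 14.5% of all genes. Of the 25 measured on all 4 arrays 8 rose and 4 fell. The chain Itgb1, shared by the VLA integrins, gave 472 and 537 in naive and 13000 and 12745 in CD44hi cells and rose 25.6-fold (log2 4.68 ± 0.21, adjusted p = 4.2e-05). Its partner Itga4 rose 2.22-fold and Itgal of LFA-1 1.75-fold, whereas Itgb7, the other partner of Itga4 and part of the gut homing integrin, was not called (log2 -0.23 ± 0.16, adjusted p = 0.319). Itgae (CD103), which holds cells at epithelia, gave 35.8 and 60.2 in naive and 2427 and 3878 in CD44hi cells and rose 66.1-fold (log2 6.05 ± 0.37, adjusted p = 1.1e-04). Itgb8, which helps to activate TGF-beta, rose at least 21.2-fold, Itgb5 at least 36.8-fold and the CD6 ligand Alcam 19-fold. The laminin receptor chain Itga6, high on naive cells, gave 15565 and 20354 on the naive arrays and 6266 and 5689 on the CD44hi arrays and fell 2.98-fold (log2 -1.58 ± 0.17, adjusted p = 0.00103). Itgb3 fell 3.41-fold, Itgax 3.47-fold and Icam2 2.55-fold. Rises numbered 7 without CD44hi array 2, and falls 7 without naive array 1. Calls that needed any 1 of the arrays in brackets were those on Itga4 (CD44hi 1, CD44hi 2 and naive 2, adjusted p up to 0.138) and Itgal (CD44hi 1 and CD44hi 2, adjusted p up to 0.0907).

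Receptors for lipid mediators and nucleotides included 8 rises and 1 fall among 21 tested (median 0.37). The fall was in S1pr1, the receptor by which T cells leave lymphoid organs, at 14644 and 16688 in naive and 9003 and 7315 in CD44hi cells, a change of 1.93-fold (log2 -0.95 ± 0.18, adjusted p = 0.0106). Its relatives S1pr2 and S1pr5 rose, 3.73-fold and at least 4.19-fold. The leukotriene receptors Ltb4r1 (at least 84.2-fold), Cysltr1 (at least 8.09-fold) and Cysltr2 (8.37-fold) rose, as did the prostaglandin E2 receptors Ptger2 (10.8-fold) and Ptger4 (2.36-fold). P2rx7, the ATP-gated channel, gave 4232 and 3062 in naive and 29423 and 30884 in CD44hi cells and rose 8.37-fold (log2 3.07 ± 0.19, adjusted p = 1.0e-04). Limma lost the call without the array in brackets for S1pr1 (CD44hi 2, adjusted p = 0.078).

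Costimulatory and inhibitory receptors rose more often than they fell. Among 20 costimulatory receptors 7 rose and 0 fell (median 0.54), and among 18 inhibitory receptors 11 rose and 1 fell (median 2.28). Of the inhibitory receptors 8 of the 15 measured on all 4 arrays rose and 1 fell (median 0.58). Icos, which follicular helper cells need, gave 5577 and 9549 on the naive arrays and 31407 and 42721 on the CD44hi arrays and rose 5.02-fold (log2 2.33 ± 0.31, adjusted p = 0.00227). Slamf7 rose 5.93-fold, Tnfrsf9 (4-1BB) 2.45-fold, Slamf6 2.15-fold and Cd226 1.98-fold. Cd28, the first costimulatory receptor a naive cell uses, was not called (log2 0.36 ± 0.18, adjusted p = 0.19). Pdcd1 (PD-1) gave 705 and 964 in naive and 15350 and 23097 in CD44hi cells and rose 22.8-fold (log2 4.51 ± 0.33, adjusted p = 2.0e-04). Ctla4, which competes with CD28 for its ligands, gave 82.2 and 53.5 in naive and 1492 and 1518 in CD44hi cells and rose 22.7-fold (log2 4.50 ± 0.22, adjusted p = 5.1e-05). On both, every CD44hi array exceeded every naive array. Lag3, which binds class II, rose 41.6-fold, Havcr2 (Tim-3) 8.21-fold, the PD-1 ligand Pdcd1lg2 14.2-fold and Klrg1 at least 126-fold. Btla rose 1.49-fold, while Cd274 (PD-L1) and Cd96 were not called. The fall was in Ceacam1 (1.65-fold). Without CD44hi array 2 the costimulatory rises numbered 4, and without naive array 2 they numbered 11. Leaving out any 1 of the arrays in brackets ended the call on Tnfrsf9 (CD44hi 2, adjusted p = 0.0846), Btla (CD44hi 1 and CD44hi 2, adjusted p up to 0.158) and Ceacam1 (CD44hi 1, CD44hi 2 and naive 2, adjusted p up to 0.184).

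Several lectin-like receptors best known from NK cells had no measurable naive signal. Of 26 listed genes 13 were tested, 10 rose and 1 fell. Only 5 were measured on all 4 arrays, of which 2 rose and 1 fell. The list median changed sign over the settings (-0.10 to 3.92). Klrk1 (NKG2D) rose at least 10.4-fold, Klrb1a at least 11.2-fold and Klrc3 at least 5.61-fold. Klrb1c (NK1.1), measured throughout, gave 33.4 and 43.5 on the naive arrays and 762 and 761 on the CD44hi arrays and rose 20.0-fold, and Klrb1f rose 26.1-fold. Klrd1 (CD94), the partner of the Klrc receptors, did the opposite, at 6073 and 7605 in naive and 1424 and 1028 in CD44hi cells, and fell 5.62-fold (log2 -2.49 ± 0.30, adjusted p = 0.00142). Cytotoxic granule genes held 10 rises and 1 fall among 18 (median 0.86), and 7 of the 15 measured on all 4 arrays rose and 1 fell. Gzmk rose at least 58.4-fold, Gzmb at least 52.2-fold, the granule membrane gene Nkg7 75.7-fold, the protease inhibitor Serpina3g 74-fold and Gzma 7.1-fold. The pore protein Prf1 gave 2866 and 1456 in naive and 283 and 202 in CD44hi cells and fell 8.53-fold (log2 -3.09 ± 0.33, adjusted p = 9.1e-04). Among 8 tested NK, NKT and gamma-delta markers 6 rose and 1 fell. The defining genes Ncr1, Zbtb16 and Trdc were not well above background on both arrays of any group, and 3 of the 5 measured on all 4 arrays rose and 1 fell (median 1.01). The part of such cells in these values was not tested. Among the granule genes 6 rose without CD44hi array 2, and 6 fell without naive array 1.

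Some B cell genes rose. Of 15 tested markers 8 rose and 1 fell, while 4 of the 10 measured on all 4 arrays rose and 1 fell (median 0.26). Cd22 rose at least 153-fold, Jchain, the joining chain of secreted antibody, 38.7-fold, Mzb1 7.71-fold, Blnk 5.6-fold and Cd79b 6.88-fold. Cd79a was well above background on 6 of the 8 arrays, both naive arrays and 1 of the 2 CD44hi arrays among them, and was not called. Cd72, an inhibitory receptor of B cells, gave 4099 and 3186 on the naive arrays and 777 and 822 on the CD44hi arrays and fell 4.52-fold (log2 -2.18 ± 0.19, adjusted p = 3.6e-04). Ighm gave 35139 and 46840 in naive and 45293 and 53779 in CD44hi cells with overlapping groups. Class II genes went the other way, with 5 of 10 falling and 1 rising. H2-Aa fell 4.01-fold, H2-Eb1 3.18-fold and H2-Ab1 3.17-fold. Whether B cells had a part in either group of values was not tested. The class II falls numbered 2 without CD44hi array 1 and 3 without CD44hi array 2. No call remained without any 1 of the arrays in brackets for H2-Eb1 (CD44hi 1 and CD44hi 2, adjusted p up to 0.0597) and H2-Ab1 (CD44hi 1 and CD44hi 2, adjusted p up to 0.0826).

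Small calcium and membrane binding proteins, include long-used markers of memory T cells. Of 31 S100, annexin, galectin and related genes 17 rose and 2 fell (median 1.11, within slides 0.84 and 1.80). S100a6 gave 199 and 347 in naive and 49377 and 54594 in CD44hi cells and rose 197-fold (log2 7.63 ± 0.31, adjusted p = 3.8e-05). S100a4 gave 506 and 1672 on the naive arrays and 136390 and 186700 on the CD44hi arrays and rose 174-fold (log2 7.44 ± 0.53, adjusted p = 1.8e-04). Anxa1, which dampens inflammation, gave 20.9 and 25.2 in naive and 2021 and 2728 in CD44hi cells and rose 102-fold (log2 6.67 ± 0.30, adjusted p = 4.1e-05). Its relative Anxa2 rose 48.5-fold, the galectin Lgals3 35-fold and the scaffold Ahnak 15.8-fold, while Anxa5, Anxa6 and Anxa7 were not called. S100a10, which pairs with Anxa2, rose 2.16-fold. Lgals1 gave 12718 and 21085 in naive and 62496 and 86076 in CD44hi cells and rose 4.48-fold (log2 2.16 ± 0.28, adjusted p = 0.00191), and Lgals4 fell 2.2-fold. Without any 1 of the arrays in brackets limma did not call S100a10 (CD44hi 1 and CD44hi 2, adjusted p up to 0.0944) and Lgals4 (CD44hi 1 and CD44hi 2, adjusted p up to 0.0777).

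Genes of the machinery that reads the antigen receptor were called about as often as all genes. Of 40 proximal signalling genes 6 rose and 7 fell, near the shares of all genes (13.2% and 14.5%), with a median of -0.13 whose sign was not fixed (-0.40 to 0.094). The kinase Zap70 rose 1.55-fold and Fyn 1.53-fold, while Lck was not called (log2 -0.24 ± 0.15, adjusted p = 0.283). Tec fell, as given above, with the adaptor Grap2 (2.44-fold) and Rasgrp1, which turns on Ras (1.91-fold). Sla, an adaptor that lowers receptor levels, rose 2.24-fold. Among 26 calcium and NFAT genes 2 rose and 4 fell. The potassium channel Kcna3, known to sustain calcium entry in effector memory cells, gave 99.6 and 47.8 on the naive arrays and 202 and 252 on the CD44hi arrays and rose 3.27-fold (log2 1.71 ± 0.35, adjusted p = 0.0138). The calcineurin subunit Ppp3ca fell 2.01-fold and Rcan3 3.16-fold, and none of the 4 NFAT genes Nfatc1, Nfatc2, Nfatc3 and Nfat5 was called. Leaving out CD44hi array 1 or CD44hi array 2 left 1 and 1 proximal signalling rises and 5 and 3 falls, and leaving out naive array 1 gave 10 rises and 16 falls there and 6 rises among the calcium and NFAT genes. Calls that needed any 1 of the arrays in brackets were those on Zap70 (CD44hi 1 and CD44hi 2, adjusted p up to 0.169), Fyn (CD44hi 1 and CD44hi 2, adjusted p up to 0.16), Rasgrp1 (CD44hi 2, adjusted p = 0.073), Kcna3 (CD44hi 2, adjusted p = 0.0738) and Ppp3ca (CD44hi 1 and CD44hi 2, adjusted p up to 0.145).

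Among 29 immediate early genes 3 rose and 3 fell (10.3% each), beside 13.2% and 14.5% of all genes. The list medians were -0.63 and 0.25 within the slides. Myc gave 7401 and 12915 in naive and 2738 and 2582 in CD44hi cells and fell 3.68-fold (log2 -1.88 ± 0.27, adjusted p = 0.00308). Jun fell 3.04-fold, whereas Fos and Egr1 were not called (log2 -0.48 and -0.39). Egr2, which restrains T cell activation, rose 2.63-fold. For the brakes on these pathways, 3 of 21 dual-specificity phosphatase and Sprouty family genes rose and 4 fell. Dusp4 gave 89.7 and 82.2 in naive and 1416 and 1935 in CD44hi cells and rose 19.3-fold (log2 4.27 ± 0.29, adjusted p = 1.4e-04), Dusp14 rose at least 21.6-fold and Spry1 7.5-fold, while Dusp10 fell 1.84-fold. Among regulators of G protein signalling, which shorten chemokine signals, 6 of 13 rose and 2 fell. Rgs16 gave 73.1 and 118 on the naive arrays and 1676 and 3263 on the CD44hi arrays and rose 25.1-fold (log2 4.65 ± 0.52, adjusted p = 0.00107), Rgs1 rose 4.18-fold, and Rgs11 fell 5.54-fold. Of 27 NF-kappaB genes 2 rose and 3 fell, both below the shares of all genes, and Traf4 gave the largest difference, a fall of 3.59-fold. Falls were more numerous without naive array 1, with 11 of immediate early, 10 of phosphatase, 5 of RGS and 9 of NF-kappaB genes, and without naive array 2 there were 5 immediate early rises. Limma lost the call without the array in brackets for Dusp10 (CD44hi 2, adjusted p = 0.0684) and Traf4 (CD44hi 1, adjusted p = 0.0579).

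Survival and death genes moved in both directions. Of 32 Bcl2 family, caspase and inhibitor genes 11 rose and 4 fell (median 0.44). The rises were 34.4% beside 13.2% of all genes, and the falls 12.5%, not above the 14.5% of all genes. Bcl2, the survival factor maintained by IL-7, gave 21177 and 18716 in naive and 6285 and 5072 in CD44hi cells and fell 3.53-fold (log2 -1.82 ± 0.24, adjusted p = 0.00218). Mcl1 fell 2.11-fold, and among the survival genes Bcl2l1 (Bcl-xL) rose 2.43-fold and Bcl2l2 (Bcl-w) 2.58-fold. Bcl2l11 (Bim), the main killer of T cells short of cytokine, gave 4460 and 5358 in naive and 2097 and 2038 in CD44hi cells and fell 2.36-fold (log2 -1.24 ± 0.18, adjusted p = 0.00313), while the killer Pmaip1 (Noxa) rose 9.11-fold. The inflammatory caspases Casp1 and Casp4 rose 18.9-fold and 21-fold. Birc5 (survivin), which also serves in mitosis, rose 35.9-fold. Leaving out any 1 of the arrays in brackets ended the call on Mcl1 (CD44hi 1 and CD44hi 2, adjusted p up to 0.108).

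Falls outnumbered rises among TGF-beta signalling genes. Of 25 tested 11 fell, which is 44.0% against 14.5% of all genes, and 2 rose, although the median was only -0.12. Smad7, the inhibitor that the pathway induces, gave 4151 and 3796 on the naive arrays and 936 and 770 on the CD44hi arrays and fell 4.68-fold (log2 -2.23 ± 0.17, adjusted p = 2.1e-04). The type I receptor Acvr1b fell 4.6-fold, Smad1 3.28-fold, the repressor Skil 2.18-fold and the ubiquitin ligase Smurf1 2.16-fold. Smad2 and Smad3, which carry the TGF-beta signal, were not called, and their partner Smad4 fell 1.74-fold. Acvr1 rose 3.97-fold. Wnt and Notch genes gave 11 falls and 5 rises among 32 (median -0.31). Tcf7l1 gave 375 and 601 in naive and 46.5 and 37.5 in CD44hi cells and fell 11.4-fold (log2 -3.51 ± 0.27, adjusted p = 2.2e-04), and with Tcf7, Lef1 and Tcf7l2 (2.7-fold, with another probe of opposite sign) all 4 genes of the TCF family fell. The corepressor Tle1 fell 6.26-fold and Tle2 3.8-fold, whereas the ligand gene Wnt10a gave 39.5 and 57.8 in naive and 2466 and 2492 in CD44hi cells and rose 51.9-fold (log2 5.70 ± 0.38, adjusted p = 1.4e-04). In the TGF-beta list 7 fell without CD44hi array 1 and 6 without CD44hi array 2, and 5 rose without naive array 1. In the Wnt and Notch list 7 fell without CD44hi array 1, and 6 fell and 3 rose without CD44hi array 2. No call remained without any 1 of the arrays in brackets for Smad4 (CD44hi 1 and CD44hi 2, adjusted p up to 0.107).

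Most chromatin modifiers lay below 0 (35 of 49), with 12 falls and 1 rise (median -0.38). The rise was Ezh2, the methyltransferase of Polycomb, at 1148 and 1865 on the naive arrays and 4946 and 5407 on the CD44hi arrays, a change of 3.53-fold (log2 1.82 ± 0.26, adjusted p = 0.00306). Its partners Eed and Suz12 and its relative Ezh1 were not called. The demethylase Kdm6b, which removes the mark Ezh2 sets, fell 2.64-fold. Tet1 and Tet3, which oxidize methylated cytosine, fell 2.47-fold and 2.3-fold, while Tet2 was not called (log2 0.45). The class II deacetylases Hdac4, Hdac5 and Hdac9 fell 1.85-fold, 1.62-fold and 1.83-fold. The falls numbered 3 without CD44hi array 2 and 25 without naive array 1, which also gave 6 rises. Without any 1 of the arrays in brackets limma did not call Tet3 (CD44hi 2, adjusted p = 0.0782), Hdac4 (CD44hi 2, adjusted p = 0.055), Hdac5 (CD44hi 1, CD44hi 2 and naive 2, adjusted p up to 0.159) and Hdac9 (CD44hi 1 and CD44hi 2, adjusted p up to 0.0732).

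Mitosis genes had the largest share of rises among the 53 lists. Of 59 mitosis genes 56 rose and 0 fell, against 13.2% and 14.5% of all genes, with a median of 4.35 (3.63 within slide 1 and 4.70 within slide 2) that ran from 2.96 to 4.59 over 17 settings. The proliferation marker Mki67 gave 255 and 462 in naive and 17979 and 22833 in CD44hi cells and rose 59-fold (log2 5.88 ± 0.41, adjusted p = 1.6e-04). The mitotic cyclins Ccna2, Ccnb1 and Ccnb2 rose 74.1-fold, 38.7-fold and 34.2-fold, and their kinase Cdk1 rose at least 68-fold (adjusted p = 8.8e-05), with 878 and 1232 on the CD44hi arrays. Top2a gave 118 and 87.8 in naive and 2072 and 2996 in CD44hi cells and rose 24.5-fold (log2 4.61 ± 0.37, adjusted p = 2.6e-04). The kinesins Kif2c (at least 24.4-fold) and Kif11 (at least 34.3-fold), the kinase Aurkb (at least 42.6-fold), the checkpoint kinase Bub1 (at least 37.7-fold) and separase, Espl1 (at least 62.8-fold), rose too. Of its members 43 of the 46 measured on all 4 arrays rose and 0 fell (median 3.74). The members not called were Kif23, Bub3 and the securin gene Pttg1.

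DNA replication genes rose in part. Of 46 tested 17 rose and 2 fell (median 0.58, within slides 0.28 and 0.84). The licensing factor Cdc6 gave 19.5 and 39.6 on the naive arrays and 497 and 637 on the CD44hi arrays and rose 20.2-fold (log2 4.34 ± 0.45, adjusted p = 7.5e-04). Rrm2, the regulated subunit of ribonucleotide reductase, rose 17.1-fold, thymidine kinase Tk1 43.6-fold, Mcm10 46.2-fold and Uhrf1 9.38-fold. In the replicative helicase only Mcm5 (2.5-fold) and Mcm6 (2.01-fold) rose, while Mcm2, Mcm3, Mcm4 and Mcm7 were not called, and the clamp Pcna gave 20289 and 28373 in naive and 26880 and 32638 in CD44hi cells and was not called (adjusted p = 0.335). In the origin recognition complex Orc1 rose at least 6.61-fold, Orc5 fell 1.71-fold with another probe of opposite sign (log2 0.088 as the mean of its probes), and Orc2, Orc3, Orc4 and Orc6 were not called. Without naive array 1 9 genes of the list fell. Calls that needed the array in brackets were those on Mcm6 (CD44hi 2, adjusted p = 0.125) and Orc5 (CD44hi 2, adjusted p = 0.0809).

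Genes of the G1 phase gave 12 rises and 3 falls among 29 (41.4% and 10.3%, beside 13.2% and 14.5% of all genes). Among the 24 measured on all 4 arrays 7 rose and 3 fell (median 0.014). The E2F factors E2f7 (at least 22.3-fold) and E2f8 (at least 25-fold), which repress E2F targets late in the cycle, rose, and so did the activators E2f1 (6.59-fold), E2f2 (3.43-fold) and E2f3 (2.87-fold). E2f4, E2f5 and E2f6 were not called. Cyclins of the E type rose (Ccne1 2.38-fold, Ccne2 at least 13.5-fold), Ccnd1 fell 3.04-fold, and Ccnd2 and Ccnd3, the D cyclins of lymphocytes, were not called. The inhibitors of the cycle rose as well, Cdkn1a (p21) at least 5.97-fold, Cdkn2b (p15) at least 14.7-fold and Cdkn2c (p18) 6.73-fold, while Cdkn1b (p27), kept high in resting cells, was not called (log2 -0.26 ± 0.18, adjusted p = 0.315, with its other 2 measurable probes of opposite sign). In this list too 9 genes fell without naive array 1. Limma lost the call without any 1 of the arrays in brackets for Ccne1 (CD44hi 1, CD44hi 2 and naive 1, adjusted p up to 0.158).

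Promoters of cell cycle genes are known to carry the CHR element of the MuvB and DREAM complexes, CCAAT boxes bound by NF-Y, and E2F sites. These letters were looked for on both strands in the 250 bases before the first-listed RefSeq start of each gene (build GRCm38.p6), with CHR as TTTGAA or TTCGAA, the CCAAT box as CCAAT, and E2F as TTTCCCGC, TTTGGCGC or TTTCGCGC, matches being allowed to overlap. Of 50 mitosis genes with a promoter in the table, 70.0% held a CCAAT box, 36.0% a CHR and 6.0% an E2F match. Over all 27025 promoters the shares were 34.5%, 17.4% and 1.59%. In the 38 DNA replication genes they were 60.5%, 18.4% and 23.7%, and in the 22 G1 genes 36.4%, 18.2% and 22.7%. The 1527 promoters of all risen genes, at 37.3%, 14.1% and 3.08%, and the 1616 of fallen genes, at 34.2%, 11.8% and 2.29%, lay near the 36.0%, 12.7% and 2.81% of the 11138 tested genes. High CCAAT and CHR shares were not confined to cell cycle lists. A CCAAT box was held by 86.2% of 29 secretory pathway promoters and 85.7% of 7 class II promoters. A CHR was held by 35.7% of 14 chemokine receptor promoters and 35.0% of 20 transporter promoters. Outside the replication and G1 lists the largest E2F share was 9.38%, in 32 ribosome biogenesis and translation factor promoters. The shares are descriptions with no test.

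The promoters of 7 risen cell cycle genes are printed because they hold these elements. They were chosen after the matches were seen. Each is the run from 250 bases before the start to the base before it, written 5′ to 3′ on the strand of the gene, with the matched letters in capitals. They lie at chr10:69352913-69353162 (minus strand) for Cdk1, chr9:70421555-70421804 (minus) for Ccnb2, chr2:127831860-127832109 (minus) for Bub1, chr15:102296043-102296292 (plus) for Espl1, chr4:108579204-108579453 (plus) for Orc1, chr10:110745189-110745438 (plus) for E2f7 and chr1:128359706-128359955 (minus) for Mcm6.
Cdk1: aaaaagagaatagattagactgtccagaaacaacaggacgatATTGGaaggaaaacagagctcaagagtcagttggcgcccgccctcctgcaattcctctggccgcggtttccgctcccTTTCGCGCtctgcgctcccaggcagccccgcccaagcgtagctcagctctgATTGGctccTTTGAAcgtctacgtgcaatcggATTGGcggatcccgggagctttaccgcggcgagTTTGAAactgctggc
Ccnb2: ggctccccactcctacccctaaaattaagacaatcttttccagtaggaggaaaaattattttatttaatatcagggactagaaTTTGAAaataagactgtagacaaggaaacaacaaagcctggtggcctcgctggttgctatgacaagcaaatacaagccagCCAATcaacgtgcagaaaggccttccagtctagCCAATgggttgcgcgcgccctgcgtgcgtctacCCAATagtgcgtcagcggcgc
Bub1: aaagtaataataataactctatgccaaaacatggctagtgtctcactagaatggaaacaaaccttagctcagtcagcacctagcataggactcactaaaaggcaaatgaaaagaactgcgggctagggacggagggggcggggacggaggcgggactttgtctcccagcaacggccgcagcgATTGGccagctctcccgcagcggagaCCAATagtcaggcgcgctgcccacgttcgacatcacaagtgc
Espl1: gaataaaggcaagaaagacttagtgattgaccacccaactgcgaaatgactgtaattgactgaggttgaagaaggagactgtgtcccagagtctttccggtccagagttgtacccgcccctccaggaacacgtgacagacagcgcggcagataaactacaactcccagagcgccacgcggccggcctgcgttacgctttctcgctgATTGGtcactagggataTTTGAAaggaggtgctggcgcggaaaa
Orc1: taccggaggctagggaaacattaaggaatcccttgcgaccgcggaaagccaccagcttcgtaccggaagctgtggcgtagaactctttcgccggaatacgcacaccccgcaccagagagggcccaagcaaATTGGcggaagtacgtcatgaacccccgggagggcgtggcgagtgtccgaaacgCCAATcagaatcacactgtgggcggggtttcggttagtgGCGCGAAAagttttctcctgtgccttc
E2f7: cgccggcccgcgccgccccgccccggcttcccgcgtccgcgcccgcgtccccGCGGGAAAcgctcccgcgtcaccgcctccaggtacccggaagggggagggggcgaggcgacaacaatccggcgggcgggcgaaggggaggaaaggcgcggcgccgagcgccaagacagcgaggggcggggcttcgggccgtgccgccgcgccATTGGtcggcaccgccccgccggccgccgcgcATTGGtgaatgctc
Mcm6: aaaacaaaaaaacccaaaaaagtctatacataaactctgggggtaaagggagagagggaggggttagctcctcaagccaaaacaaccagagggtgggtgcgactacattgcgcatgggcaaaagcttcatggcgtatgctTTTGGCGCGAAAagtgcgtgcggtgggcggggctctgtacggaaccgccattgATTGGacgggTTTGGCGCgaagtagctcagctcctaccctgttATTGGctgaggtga

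In the mitotic genes Ccnb2 and Bub1 the CCAAT boxes stand in a row, in Ccnb2 at -87, -54 and -21 from the start and in Bub1 at -68 and -42. Cdk1 holds CHR letters at -71 and -15, CCAAT boxes at -208, -80 and -48 and an E2F match at -131. Espl1 pairs a CCAAT box at -44 with a CHR at -27. The replication gene Mcm6 holds E2F matches at -110, -106 and -47, the first 2 overlapping, and Orc1 holds one at -27. Of the 7 genes Mcm6 rose least, 2.01-fold.

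**Figure D4:**
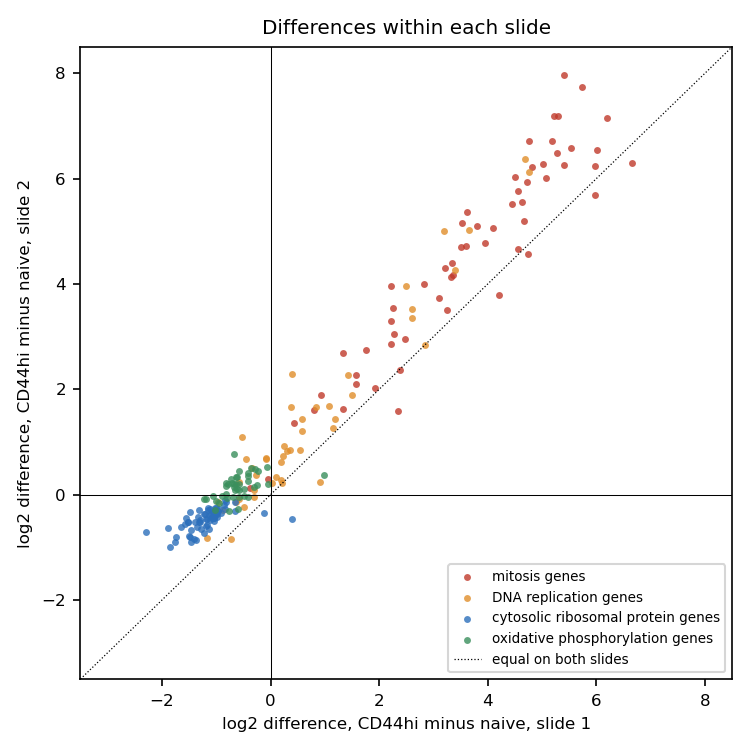
Log2 difference of CD44hi from naive within slide 1 (horizontal axis) and within slide 2 (vertical axis), 1 array of each group per slide, for the tested members of 4 lists. Most mitosis genes lie far above 0 on both axes, DNA replication genes spread from below 0 upwards, oxidative phosphorylation genes lie around 0, and most ribosomal protein genes lie below 0 on both axes but further on slide 1 (median -1.16) than on slide 2 (-0.43).

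Few enzymes of energy metabolism were called. Of 42 genes of glycolysis, the pentose phosphate pathway and the TCA cycle 4 rose and 5 fell, beside 13.2% and 14.5% of all genes. Hexokinase 2, Hk2, gave 54.3 and 101 in naive and 547 and 776 in CD44hi cells and rose 8.8-fold (log2 3.14 ± 0.39, adjusted p = 0.00162). Gapdh rose 1.86-fold, Pdk3 1.81-fold and Pfkp 1.75-fold. The kinase Pdk1, which holds pyruvate out of the TCA cycle, gave 10038 and 11617 on the naive arrays and 2144 and 1714 on the CD44hi arrays and fell 5.63-fold (log2 -2.49 ± 0.18, adjusted p = 1.8e-04). The glucose transporters Slc2a1 and Slc2a3 were not called (log2 -0.36 and 0.027). Of 43 oxidative phosphorylation genes 0 were called by limma and 4 had an unadjusted p below 0.05, a lower share than the 7462 of all 17995 genes. The list median was -0.24 (-0.55 to 0.10 over the settings, so of no fixed sign). Falls appeared under median scaling (7 genes) and without naive array 1 (32 genes). In the glycolysis, pentose phosphate and TCA list 2 fell without CD44hi array 1, 2 without CD44hi array 2 and 12 without naive array 1, and 9 and 8 rose without naive array 1 and naive array 2. Leaving out any 1 of the arrays in brackets ended the call on Gapdh (CD44hi 2, adjusted p = 0.0517), Pdk3 (CD44hi 1 and CD44hi 2, adjusted p up to 0.132) and Pfkp (CD44hi 1 and CD44hi 2, adjusted p up to 0.0532).

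Genes of the cytosolic ribosome lay below 0 in every case. Of 65 tested 37 fell, 65 lay below 0 and the median was -0.79 against -0.15 for all genes. Rps19 gave 260260 and 458120 in naive and 126480 and 131580 in CD44hi cells and fell 2.68-fold (log2 -1.42 ± 0.27, adjusted p = 0.00961), and Rps15 fell 2.82-fold. The calls in this group depended on single arrays and on the scaling. The signal was higher on naive array 2 than on naive array 1 in 63 of 65. The falls numbered 4 without CD44hi array 1 and 3 without CD44hi array 2. Of the 65 genes 32 fell without naive array 2 (median -0.47), without naive array 1 63, under quantile normalization 19 (median -0.19) and in a fit of the 4 arrays alone 1. Of 42 ribosome biogenesis and translation factor genes 14 fell and 0 rose, led by the nucleolar Nop56 (2.1-fold). The biogenesis falls numbered 6 without CD44hi array 1, 2 without CD44hi array 2 and 28 without naive array 1. No call remained without any 1 of the arrays in brackets for Rps15 (CD44hi 1 and CD44hi 2, adjusted p up to 0.144) and Nop56 (CD44hi 2, adjusted p = 0.0747).

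In lipid metabolism 6 of 48 genes rose (12.5%), near the 13.2% of all genes, and 4 fell (8.33%, beside 14.5%). Of the sterol synthesis enzymes only Fdft1 (1.75-fold) and Nsdhl (1.45-fold) rose. The cholesterol exporter Abca1 gave 2027 and 2132 in naive and 427 and 385 in CD44hi cells and fell 5.13-fold (log2 -2.36 ± 0.17, adjusted p = 2.1e-04), and its relative Abcg1 fell 1.6-fold. Of 30 transporters 9 rose and 7 fell. The amino acid transporter Slc43a1 rose at least 50.6-fold and the zinc transporter Slc39a4 6.69-fold, while Slc7a5, the leucine carrier of activated T cells, fell 1.97-fold and Slc38a2 2.18-fold. Without CD44hi array 1 or CD44hi array 2 the lipid rises numbered 1 and 1 and the transporter falls 4 and 3, and without naive array 1 the lipid falls numbered 13. Without any 1 of the arrays in brackets limma did not call Fdft1 (CD44hi 1, CD44hi 2 and naive 1, adjusted p up to 0.159), Nsdhl (CD44hi 1, CD44hi 2 and naive 2, adjusted p up to 0.22), Abcg1 (CD44hi 1 and CD44hi 2, adjusted p up to 0.115) and Slc7a5 (CD44hi 1, CD44hi 2 and naive 2, adjusted p up to 0.0956).

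Of 30 genes of purine metabolism 7 rose and 5 fell, beside 13.2% and 14.5% of all genes, and 5 of the 28 measured on all 4 arrays rose and 5 fell (median -0.17). Entpd1 (CD39), which breaks down ATP, rose at least 31.5-fold and Nt5e (CD73), which makes adenosine from AMP, gave 1342 and 1804 on the naive arrays and 7249 and 7110 on the CD44hi arrays and rose 4.61-fold (log2 2.21 ± 0.21, adjusted p = 5.9e-04). Cd38, which consumes NAD, gave 28.5 and 27.6 in naive and 610 and 635 in CD44hi cells and rose 22.2-fold (log2 4.47 ± 0.24, adjusted p = 6.4e-05). The ADP-ribosyltransferase Art2a rose at least 5.9-fold, while Art2b was not called (log2 0.46). Inside the cell adenosine deaminase, Ada, gave 2175 and 3657 in naive and 949 and 1031 in CD44hi cells and fell 2.85-fold (log2 -1.51 ± 0.25, adjusted p = 0.00563), and the purine nucleoside phosphorylase Pnp rose 3.41-fold. Together with Ampd1, given above, both deaminases of adenine compounds named here fell. Of the synthesis enzymes Gart, Paics, Atic, Ppat, Gmps and Adsl none was called. Falls in the purine list numbered 3 without CD44hi array 1, 3 without CD44hi array 2, 10 without naive array 1 and 8 without naive array 2.

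Few stress and protein handling genes were called. Of 35 secretory pathway genes 4 rose (11.4%) and 1 fell (2.86%), beside 13.2% and 14.5% of all genes. The rises included Atf6 (3.79-fold), Sdf2l1 (2.5-fold) and Xbp1 (1.68-fold). Of 19 heat shock genes 1 rose and 2 fell. Of 37 proteasome genes 0 were called by limma and 6 had an unadjusted p below 0.05, a lower share than the 7462 of all 17995 genes. Interferon-inducible genes gave 14 rises and 7 falls among 48, with a median of 0.039 (-0.23 to 0.17 over the settings) and members moving both ways. Mx1 gave 54.7 and 39.2 on the naive arrays and 642 and 477 on the CD44hi arrays and rose 12-fold (log2 3.58 ± 0.23, adjusted p = 1.2e-04), while Oas2 gave 2242 and 2226 in naive and 373 and 209 in CD44hi cells and fell 8.00-fold (log2 -3.00 ± 0.33, adjusted p = 9.6e-04). The 2'-5' oligoadenylate synthetases were thus divided, with Oas3 (3.41-fold) and Oas1a (2.79-fold) among the rises and Oas2 and Oasl1 (5.81-fold) among the falls. Ifitm2 rose 7.12-fold, Irf8 3.51-fold and Gbp3 3.68-fold, and Usp18 fell 2.84-fold. Without naive array 1 the falls numbered 14 in the secretory, 9 in the heat shock, 18 in the proteasome and 15 in the interferon list. The interferon list had 8 rises without CD44hi array 1, 3 falls without CD44hi array 2 and 4 falls without naive array 2. Calls that needed any 1 of the arrays in brackets were those on Sdf2l1 (CD44hi 2, adjusted p = 0.096), Xbp1 (CD44hi 1 and CD44hi 2, adjusted p up to 0.0713) and Usp18 (CD44hi 2 and naive 2, adjusted p up to 0.0805).

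In the cytoskeleton 5 of 48 genes rose (10.4%) and 6 fell (12.5%), beside 13.2% and 14.5% of all genes. The rises depended on the scaling, with 16 under quantile normalization (median 0.356) and 19 in the authors' value table (median 0.355). Over all genes the rises numbered 2513 and 2637 there, against 2383. Myo1f gave 86.3 and 92.8 in naive and 17855 and 17338 in CD44hi cells and rose 197-fold (log2 7.62 ± 0.20, adjusted p = 1.6e-05), whereas its close relative Myo1g was not called (log2 0.20) and Myo10 fell 7.04-fold. Vinculin, Vcl, rose 3.55-fold, lamin A, Lmna, 2.82-fold and Rhoc 2.51-fold, and Rhob fell 2.46-fold. Cytoskeleton falls numbered 2 without CD44hi array 1, 2 without CD44hi array 2 and 20 without naive array 1, and rises 8 without naive array 1 and 9 without naive array 2.

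Of the smaller lists, Kruppel-like factors gave 3 rises and 2 falls among 9, with Klf9 up 3.18-fold and Klf7 down 2.32-fold. Among 7 Gimap GTPases, which support T cell survival, only Gimap6 was called and fell 1.72-fold. Of 20 histone and high mobility group genes 5 rose, led by H2ac4 (15.8-fold), the linker histones H1f5 (8.00-fold) and H1f0 (5.45-fold) and Hmgb2 (2.98-fold), and 2 fell. Of 21 myeloid and dendritic markers 6 rose and 2 fell, with Cybb up at least 52.8-fold, Lyz2 6.36-fold and Fcgr3 down 3.51-fold. Clec9a, Siglech and Spi1 were not above background on both arrays of any group, and the part of such cells was not tested. Without naive array 1 9 histone and high mobility group genes and 5 myeloid markers fell. Limma lost the call without any 1 of the arrays in brackets for Gimap6 (CD44hi 2 and naive 2, adjusted p up to 0.132) and Fcgr3 (naive 2, adjusted p = 0.0501).

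Many genes known from regulatory T cells rose as well. Of 23 tested 17 rose and 2 fell (median 4.27), while 12 of the 17 measured on all 4 arrays rose and 2 fell (median 2.29). Ebi3, a subunit of IL-35 and IL-27, gave 29.9 and 79.4 on the naive arrays and 3706 and 4222 on the CD44hi arrays and rose 81.2-fold (log2 6.34 ± 0.43, adjusted p = 1.4e-04), and Plagl1 rose at least 51.9-fold. Nrp1 rose from 26.5 and 14.2 to 1346 and 1462, with 1 of the 2 naive arrays above background. The falls were Gpr83 (1.83-fold) and Gata1, at 287 and 272 in naive and 53.8 and 80.0 in CD44hi cells, a change of 4.25-fold (log2 -2.09 ± 0.21, adjusted p = 7.5e-04). In the follicular helper list 15 of 18 rose and 0 fell (median 2.16; on all 4 arrays 12 of 15, median 1.32), among them Angptl2 (at least 81.5-fold), Cd200 (5.61-fold) and the adaptor Sh2d1a (SAP, 1.81-fold), beside Sostdc1, Il21, Cxcr5, Pdcd1 and Icos, given above. Not called were Pou2af1 and the receptor chains Il6ra and Il6st. Leaving out the array in brackets ended the call on Gpr83 (CD44hi 2, adjusted p = 0.0672) and Sh2d1a (CD44hi 2, adjusted p = 0.107).

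The same CD44hi arrays were then set against the CD44lo and Treg arrays, to see which of these differences left CD44hi apart from the other 2 groups as well. The comparisons share the CD44hi arrays and are therefore not independent. Against CD44lo 1088 genes (6.05%) were higher in CD44hi and 595 (3.31%) lower, and against Treg 727 (4.04%) were higher and 747 (4.15%) lower. Of the 2383 genes that rose over naive, 1022 were also higher than in CD44lo, 477 higher than in Treg and 354 higher than in both. The opposite was called for 7 against CD44lo and 122 against Treg. Of the 2616 that fell, 549 were also lower than in CD44lo, 381 lower than in Treg and 293 lower than in both. Without CD44hi array 2 the genes higher than in all 3 other groups numbered 156. The genes lower than in all 3 numbered 136 without CD44hi array 1, 122 without CD44hi array 2, 556 without naive array 1 and 574 without naive array 2. The genes named next were chosen after their values were seen.

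Genes higher in CD44hi than in all other groups included transporters and receptors with scarcely any signal elsewhere. Slc22a4, a carrier of ergothioneine and carnitine, gave 551 and 541 in CD44hi and was not well above background on any of the other 6 arrays. The ADP receptor P2ry1 gave 474 and 526 in CD44hi and was above background on 1 CD44lo array only. Il17re, part of the receptor for IL-17C, gave 28.7 and 36 in naive, 57.3 and 54.5 in CD44lo, 87.8 and 222 in Treg and 1142 and 2326 in CD44hi, which was 29.2-fold (log2 4.87, adjusted p = 0.00312) above CD44lo and 11.7-fold (log2 3.54, adjusted p = 0.0075) above Treg. The scavenger receptor gene Cd163l1 is known from gamma-delta T cells that make IL-17. It gave 55.4 and 46.2 in naive, 92.6 and 84.1 in CD44lo, 139 and 265 in Treg and 1064 and 3057 in CD44hi. The gamma-delta receptor gene Trdc was not above background on both arrays of any group. The part of gamma-delta T cells in the Cd163l1 signal was not tested. The Cd163l1 signal exceeded CD44lo 20.4-fold (log2 4.35, adjusted p = 0.00462) and Treg 9.39-fold (log2 3.23, adjusted p = 0.013). Il2 gave 320 and 268 in CD44hi, 34.6 and 39.3 in CD44lo and 19.7 and 24.4 in Treg, and was higher in CD44hi by 7.96-fold (log2 2.99, adjusted p = 0.00293) and 13.4-fold (log2 3.74, adjusted p = 0.00103). Ifng, at 1857 and 3786 in CD44lo and 2721 and 3275 in Treg, was exceeded by CD44hi 5.92-fold (log2 2.56, adjusted p = 0.0197) and 5.25-fold (log2 2.39, adjusted p = 0.0259). On each of these genes both CD44hi arrays lay above all others.

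Genes lower in CD44hi than in all other groups included some whose Treg signal lay near the naive one. Drc1 gave 1510 and 2938 in naive, 605 and 913 in CD44lo, 1519 and 1952 in Treg and 58 and 43.1 in CD44hi, 34.4-fold (log2 -5.11, adjusted p = 8.8e-04) below Treg. The sorting receptor gene Sorcs2 gave 867 and 645 in naive, 656 and 460 in CD44lo, 1018 and 843 in Treg and 45.5 and 39.7 in CD44hi, 21.8-fold (log2 -4.45, adjusted p = 4.1e-04) below Treg. Both genes thus separated the CD44hi arrays from the other 6 without overlap. Ifngr2 gave 5631 and 4754 in CD44lo and 4932 and 3944 in Treg, and CD44hi lay 4.93-fold (log2 -2.30, adjusted p = 0.00239) and 4.2-fold (log2 -2.07, adjusted p = 0.00223) below them. Tcf7l1, at 233 and 228 in CD44lo and 562 and 430 in Treg, was 5.51-fold (log2 -2.46, adjusted p = 0.00371) and 11.8-fold (log2 -3.56, adjusted p = 9.3e-04) lower in CD44hi. Gata1, at 320 and 319 in CD44lo and 1372 and 1612 in Treg, was 4.87-fold (log2 -2.28, adjusted p = 0.00273) and 22.7-fold (log2 -4.50, adjusted p = 2.7e-04) lower.

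**Figure D5:**
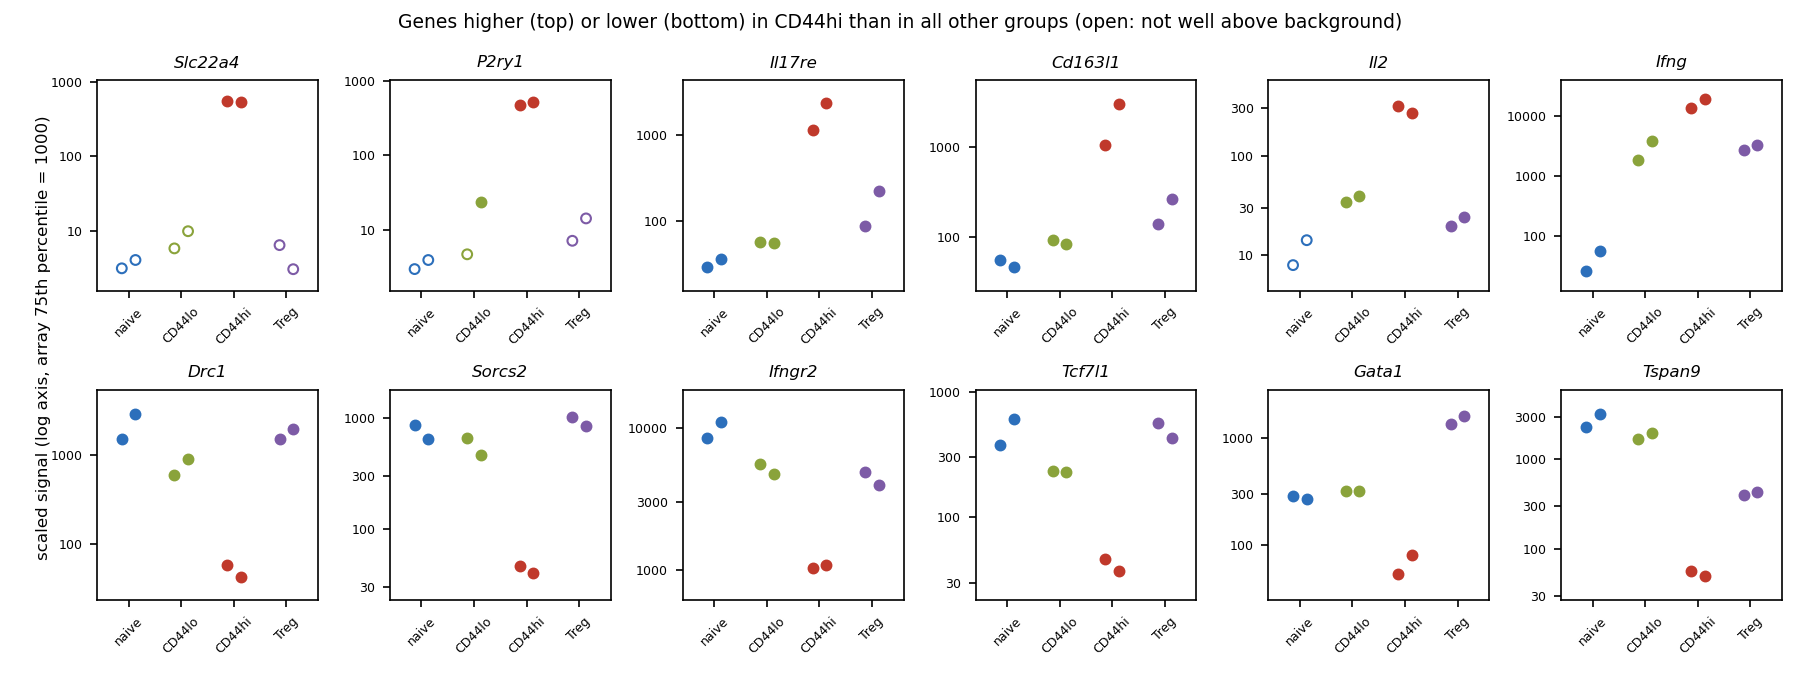
Scaled signal (log axis, array's 75th percentile = 1000) on the 8 arrays for 6 genes higher (top row) and 6 genes lower (bottom row) in CD44hi than in each of naive, CD44lo and Treg, with open circles where the probe was not well above background. In the top row both CD44hi arrays lie above the other 6 arrays, and in the bottom row below them.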

How the data were processed

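RNA of 8 sorted CD4 T cell samples, 2 in each of 4 groups, was labelled with Cy3 and hybridized to 1-colour Agilent arrays. Per the file headers, the authors' scanner files were made with Agilent Feature Extraction 9.5.1.1, whose processed signal is a background-corrected spot intensity with no scaling between arrays, and whose flags mark spots as well above background, saturated or outlying. The submitters' processing notes name limma with no version. The authors' deposited value table, used only as an alternative, holds log2 values whose columns share their quantiles. Its scale and direction follow the scanner values (Spearman rho 0.966 to 0.993), and its centring is that of a column median between 6.86 and 6.88.

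Main values were log2 of the processed signal minus each array's 75th percentile, with 1639 of 45018 spots per array left out as controls, outlier spots removed and spots of a probe averaged. Scaled signals are 1000 times 2 to that power. Of the probe names, 23075 were updated through their accession, 6587 and 3072 through a current or older symbol of the RefSeq gene table, and 8440 were kept. A gene was represented by its brightest probe and tested if some group had that probe flagged as clearly above background on its 2 arrays. One limma 3.58.1 fit (R 4.3.3) with 4 group means used all 8 arrays, with eBayes moderation and Benjamini-Hochberg adjustment over 17995 genes. An exact permutation test of 2 arrays against 2 cannot give a p below 0.333, so none was run. On simulated arrays for CD44hi against naive (17995 genes, 50 changed at each size) limma called 28% of changes of log2 1, 92% of log2 2, 96% of log2 3 and 98% of log2 4, with 10 false calls. The simulation drew independent noise for each gene from limma's own fitted spread and changed far fewer genes than were called here. It held no shift shared by many genes of an array, so these rates may not hold for the real arrays.

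The comparison, the 53 gene lists and the tests were chosen with earlier results of these data known. Named in the text are up to 6 rises and 6 falls with the largest differences per list, members needed to describe a family whole, genes among the 25 largest rises and 25 largest falls with a current symbol and the same sign on both slides, and a fixed set (Cd44, Ccr7, Il7r, Cd4, Foxp3, Il2ra, Tnfrsf4, Ifng, Tbx21 and Tcf7). Some genes are not reported here. Genes named otherwise were chosen after their values were seen. The lists carry no set test. Alternatives covered background correction, scaling, the value table, filters on dim probes, the probe rule, slide and replicate blocks, the 4 arrays alone, an intensity trend and each array left out. Promoters came from RefSeq (GRCm38.p6), which listed 11138 of the tested genes.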

Additional observations from a re-analysis of the deposited data

How the results depend on the processing

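Across 15 other settings and 1 chosen after seeing the data (probes well above background on all 4 CD44hi and naive arrays), the called genes numbered 7619 under median scaling, 3127 with no filter on dim probes and 2609 in a fit of the CD44hi and naive arrays alone, against 4999. Falls numbered 5571, 1232 and 824 there, against 2616. With 1 array left out the totals ran from 2594 to 9231, the rises from 1656 to 3317 and the falls from 938 to 5914. In such a fit the lone array of a group is assumed to vary like the other groups. Genes higher than in all 3 other groups numbered 182 with no filter, 198 with a filter on all 8 arrays and 199 with the added filter, against 354, and genes lower than in all 3 numbered 123 with no filter, against 293. Leaving out 1 array gave 156 to 518 and 122 to 574. These counts cannot be had from the 4 arrays alone. A replicate block on the numbers m1 and m2 gave 2590 rises and 2805 falls, and 560 and 362 genes apart from all 3 groups. Same-numbered arrays deviated from their group means with correlations of 0.056 to 0.331 (0.154 for naive with CD44hi), so the numbers were not taken as pairs. The block ended 1 of the 318 calls on named genes.

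Of those 318 genes 260 kept their call without each of the 4 arrays in turn, and 267 in the fit of the 4 arrays alone. The sign turned for Ltb under quantile normalization (0.031) and in the authors' value table (0.055), for Il12rb2 under normexp (-0.11), for Itgb7 under quantile normalization (0.39), for Orc5 as the mean of its probes (0.088) and for Il6ra, not called, between leaving out naive replicate 2 (-0.89) and naive replicate 1 (0.88). Causes were not tested. Signal over background limits 835 of the called genes, which had no measurable signal in the lower group.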

Other observations

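Regulatory and follicular helper genes that rose over naive cells stood differently against the Treg arrays. Foxp3, the regulatory lineage factor, gave 6844 and 6394 in Treg and 1272 and 1786 in CD44lo against 844 and 936 in CD44hi cells, and CD44hi lay 7.44-fold (log2 -2.90, adjusted p = 0.00215) below Treg while its difference from CD44lo was not called (adjusted p = 0.166). Il2ra and Ctla4, both known from regulatory cells, were likewise lower in CD44hi than in Treg, Il2ra by 19.6-fold (log2 -4.29, adjusted p = 2.5e-04) and Ctla4 by 2.92-fold (log2 -1.54, adjusted p = 0.00823). Ikzf2 was not called against Treg (adjusted p = 0.0963). The follicular helper genes Sostdc1 and Il21 were higher in CD44hi than in Treg, by 38.1-fold (log2 5.25, adjusted p = 0.00684) and 15.5-fold (log2 3.95, adjusted p = 0.0108), and Cxcr5 was not called (adjusted p = 0.0885). Il4 exceeded Treg by 25.1-fold (log2 4.65, adjusted p = 0.00431). The proliferation gene Mki67 gave 1355 and 2472 in CD44lo and 7884 and 12195 in Treg, so that CD44hi lay 11.1-fold (log2 3.47, adjusted p = 0.00465) above CD44lo and was not called against Treg (adjusted p = 0.21). These contrasts share the CD44hi arrays with the comparison against naive cells, and the genes were chosen after their values were seen.

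Few markers of cells other than leukocytes were tested. Of 7 erythroid and platelet markers 1 rose and 0 fell, and of 7 stromal, epithelial and endothelial markers 2 rose, the keratin Krt18 (11.3-fold) and the collagen Col1a1 (at least 4.52-fold), and 0 fell. The summed scaled signal of the latter was 2666 and 1623 on the naive arrays and 1758 and 2160 on the CD44hi arrays, which overlap.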
